A study of Mus musculus with 16 samples.

Results

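B and plasma cell genes were followed across 16 mouse mammary tumours by 9 members. Cd79a, Cd79b, Ms4a1, Cd22, Blk, Fcrla and Pax5 belong mainly to B cells, and Mzb1 and Pou2af1 are strong in plasma cells. A probe was taken when the array annotation gave it a member's symbol, which found 17 of 25697 probes, for 9 of 16593 named genes. RNA of each tumour was read on 1 Illumina mouse bead array, and the values below are log2 normalized intensities unless another scale is named. The tumours were 9 secondary tumours each raised from a single tumour-initiating cell (single TIC), 2 secondary tumours raised from transplanted lin- cells, and 5 primary tumours. All 16 tumours carried the MMTV-Neu transgene in FvB mice and measured less than 1.0 cm across. In MMTV-Neu mice a mouse mammary tumour virus promoter, active mainly in mammary epithelium, drives the Neu oncogene. The label lin- is commonly used for cells from which cells with blood-lineage markers were removed, and the labels name no antibodies. The labels give no age, no genotype of the transplant hosts and no donor. They do not say that tumours came from separate animals, and a p-value here therefore reflects only how far these particular tumours scatter. The study asked which genes differ in the secondary tumours and how alike the tumours are.

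B cells recognise antigen through a surface immunoglobulin that signals only together with the Cd79a and Cd79b chains, and kinases of the Src family such as Blk start that signal. Pax5 holds cells to the B lineage, and is shut off when B cells turn into plasma cells, which secrete antibody and enlarge their endoplasmic reticulum. B cells are scattered or rare in most mammary tissue, and gather in lymph nodes and in lymphoid aggregates, to which chemokines such as Cxcl13 draw them.

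The promoters of 4 members are shown because Cd79a, Cd22 and Fcrla were highest in the same tumours, as described below, whereas Pou2af1 was high in further tumours. Each runs 5′ to 3′ along the gene's strand from 250 bases before to 50 bases after the start site, as given by RefSeq for GRCm38.p6. They lie at chr7:24897247-24897546 (plus strand, Cd79a), chr7:30878979-30879278 (minus strand, Cd22), chr1:170927534-170927833 (minus strand, Fcrla) and chr9:51213440-51213739 (plus strand, Pou2af1). Capitals mark matches, on either strand, to the motifs searched. These were the EBF1 motif (TCCC and GGGA with 2 bases of any kind between them), the E-box CAGGTG, the ETS core GGAAGT and the octamer ATGCAAAT, which is bound by Oct factors with the Pou2af1 protein.
Cd79a: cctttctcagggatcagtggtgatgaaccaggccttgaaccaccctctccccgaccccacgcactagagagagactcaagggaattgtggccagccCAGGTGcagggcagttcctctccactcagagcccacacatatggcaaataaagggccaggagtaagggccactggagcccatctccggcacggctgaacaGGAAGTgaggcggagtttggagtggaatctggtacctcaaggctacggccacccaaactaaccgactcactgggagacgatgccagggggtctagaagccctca
Cd22: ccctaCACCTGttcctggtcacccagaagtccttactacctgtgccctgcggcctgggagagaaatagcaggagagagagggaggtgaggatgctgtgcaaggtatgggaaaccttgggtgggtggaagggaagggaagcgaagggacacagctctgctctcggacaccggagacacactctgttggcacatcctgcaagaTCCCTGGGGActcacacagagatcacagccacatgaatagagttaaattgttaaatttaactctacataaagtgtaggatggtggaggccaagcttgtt
Fcrla: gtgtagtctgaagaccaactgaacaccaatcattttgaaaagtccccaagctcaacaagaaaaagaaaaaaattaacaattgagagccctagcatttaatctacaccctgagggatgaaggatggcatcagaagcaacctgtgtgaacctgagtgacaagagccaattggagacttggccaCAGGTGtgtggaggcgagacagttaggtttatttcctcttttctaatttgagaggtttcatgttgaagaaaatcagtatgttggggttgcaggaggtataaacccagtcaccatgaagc
Pou2af1: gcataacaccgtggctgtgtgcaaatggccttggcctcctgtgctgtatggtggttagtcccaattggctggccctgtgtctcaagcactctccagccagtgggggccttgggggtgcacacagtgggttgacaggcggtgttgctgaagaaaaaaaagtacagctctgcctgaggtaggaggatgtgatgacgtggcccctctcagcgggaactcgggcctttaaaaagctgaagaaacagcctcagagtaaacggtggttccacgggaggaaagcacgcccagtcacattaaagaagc
The Cd22 promoter held the EBF1 motif, whose first base lay 49 bases before the start site (position -49), and this motif was present in 0.904% of 32851 mouse promoters of the same length. Its E-box began at -245. The Cd79a promoter held an E-box at -154 and an ETS core at -54, and the Fcrla promoter an E-box at -69. E-boxes occurred in 20.2% and ETS cores in 23.8% of all promoters. Only exact matches to these letters were searched, so a promoter without a match may still hold a site of differing sequence. None of the 4 promoters printed, nor that of Pax5, held the octamer (1.74% of all promoters), and the motif matches did not overlap each other. Of the other members, Cd79b, Ms4a1 and Blk had no entry, and no sequence is given for Mzb1.

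Most of the B and plasma cell signal lay in single TIC 2 and lin- 2. A probe counted as detected on an array when its detection p, which sets the probe against the array's negative controls, was under 0.05. By that measure 25 of 272 values (17 probes on 16 arrays) were detected, where the threshold alone would pass 13.6. In single TIC 2, 10 of 17 probes and 7 of 9 members were detected, and in lin- 2, 8 probes and 6 members. In the other 14 tumours 7 of 238 values were detected, fewer than the 11.9 that the threshold alone would pass. Those 7 were Pou2af1 in single TIC 4, 7 and 8, Cd79b in single TIC 5 and 9 and primary 2, and Fcrla in single TIC 5. No member was detected in single TIC 1, 3 or 6, in lin- 1, or in primary 1, 3, 4 or 5. At the stricter detection p of 0.01 there were 18 detections in place of 25. Outside single TIC 2 and lin- 2, those left were Pou2af1 in single TIC 4, 7 and 8, at a detection p of 0.00501 or less. In RNA of whole tumours, fewer cells of a type and less RNA per cell cannot be told apart.

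**Figure D1:**
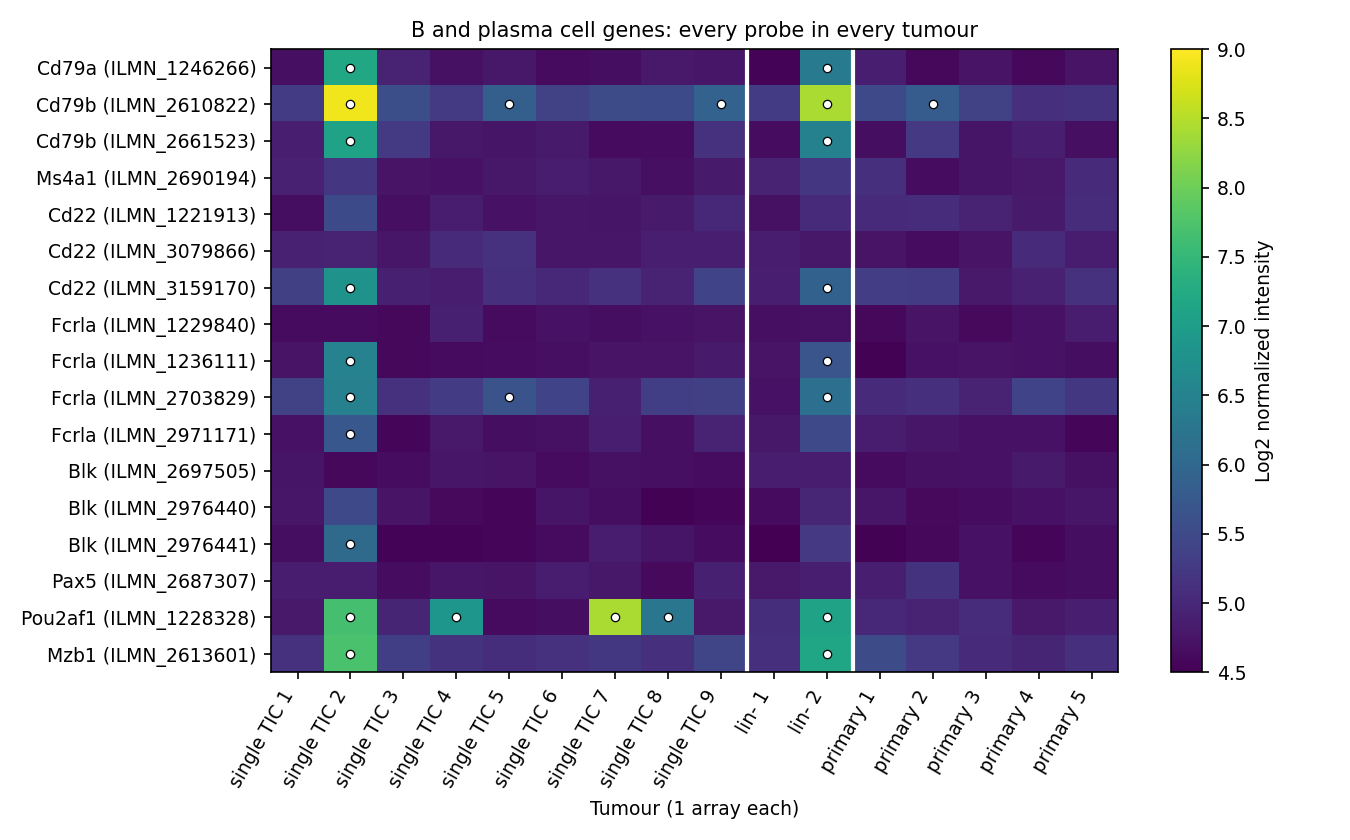
Log2 normalized intensity (colour) of all 17 probes of the 9 members, down the page, in each of 16 tumours, across, with a dot where the detection p was under 0.05 and white lines between the single TIC, lin- and primary groups. Single TIC 2 holds 10 dots and lin- 2 holds 8, against 7 in the other 14 tumours together.

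Cd79a and Cd79b, the signalling chains of the B cell receptor, were bright in the same pair of tumours. Cd79a had a lowest, median and highest value of 4.63, 4.77 and 7.18 in the 9 single TIC tumours, the highest being single TIC 2. It had 4.54 and 6.37 in lin- 1 and lin- 2, and 4.88, 4.60, 4.74, 4.59 and 4.74 in primary 1 to 5. Apart from single TIC 2 and lin- 2, no tumour detected Cd79a, and those 14 tumours lay between 4.54 and 4.94. Cd79b, by its brighter probe ILMN_2610822, had 5.27, 5.54 and 8.90 as lowest, median and highest of the single TIC tumours. It had 5.31 and 8.43 in the lin- tumours, and 5.49, 5.80, 5.37, 5.13 and 5.16 in the primary tumours. Again single TIC 2 and lin- 2 stood above all others, of which 3 detected it, at 5.86 in single TIC 5, 5.91 in single TIC 9 and 5.80 in primary 2. On the raw linear scale this Cd79b probe read 580.1 in single TIC 2 and 483.7 in lin- 2, and its lowest reading was 130.3. The second Cd79b probe, ILMN_2661523, was detected only in single TIC 2 (7.10) and lin- 2 (6.48).

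Cd22, an inhibitory coreceptor that dampens B cell receptor signals, followed the same order at lower intensity. Its brightest probe, ILMN_3159170, had 4.85, 5.10 and 6.79 as lowest, median and highest of the single TIC tumours. It had 4.88 and 5.89 in the lin- tumours and 5.32, 5.30, 4.81, 4.91 and 5.15 in the primary tumours. Only single TIC 2 (6.79) and lin- 2 (5.89) detected it, and the highest of the other 14 tumours was at 5.41. The 2 other Cd22 probes were detected on no array. Of these, ILMN_1221913 was highest in single TIC 2 (5.52, detection p 0.0514), while lin- 2 (5.04) had rank 5 of 16, and for ILMN_3079866 single TIC 2 had rank 4 and lin- 2 rank 10. Fcrla, an intracellular Fc receptor-like protein of B cells, had 4 probes. Its brightest, ILMN_2703829, had 4.90, 5.35 and 6.47 as lowest, median and highest of the single TIC tumours. It had 4.73 and 6.14 in the lin- tumours and 5.03, 5.13, 4.95, 5.41 and 5.24 in the primary tumours. Single TIC 2 and lin- 2 were the 2 highest, and single TIC 5 (5.66) was just past detection. A second Fcrla probe, ILMN_1236111, was detected in the same pair of tumours (6.49 and 5.69), ILMN_2971171 only in single TIC 2 (5.72), and ILMN_1229840 in none.

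Blk, the Src family kinase, was detected by 1 of its 3 probes, ILMN_2976441, and only in single TIC 2 (6.05). That probe read 5.25 in lin- 2, its second highest value, and at most 4.84 in the other 14 tumours. Ms4a1, which encodes the B cell surface protein CD20, was detected in no tumour, although lin- 2 (5.22) and single TIC 2 (5.20) were its highest values against at most 5.12 elsewhere. Pax5, the B lineage transcription factor, was detected in no tumour either, and its highest value, 5.15, was in primary 2, with 4.86 in single TIC 2 and 4.89 in lin- 2. Each of Ms4a1 and Pax5 had a single probe, and a value below detection gives only an upper bound on the level.

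The plasma cell members differed from each other. Mzb1, an endoplasmic reticulum protein that helps assemble immunoglobulin in marginal zone B cells and plasma cells, had 5.09, 5.16 and 7.71 as lowest, median and highest of the single TIC tumours. It had 5.13 and 7.16 in the lin- tumours and 5.54, 5.25, 5.04, 4.97 and 5.12 in the primary tumours. Only single TIC 2 (7.71) and lin- 2 (7.16) detected Mzb1, the same tumours as Cd79a. Pou2af1, the coactivator that works with Oct factors on immunoglobulin promoters, was also detected there, at 7.67 and 7.09. Its highest value of all was 8.43 in single TIC 7, which detected no other member. Single TIC 4 (6.87) and single TIC 8 (6.27) likewise detected Pou2af1 and no other member. In the other 5 single TIC tumours Pou2af1 lay between 4.63 and 4.96, in lin- 1 it was 5.09, and in the primary tumours it was 5.03, 4.94, 5.08, 4.81 and 4.88. The detected single TIC tumours thus lay above every primary tumour, and the undetected ones overlapped the primary tumours.

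**Figure D2:**
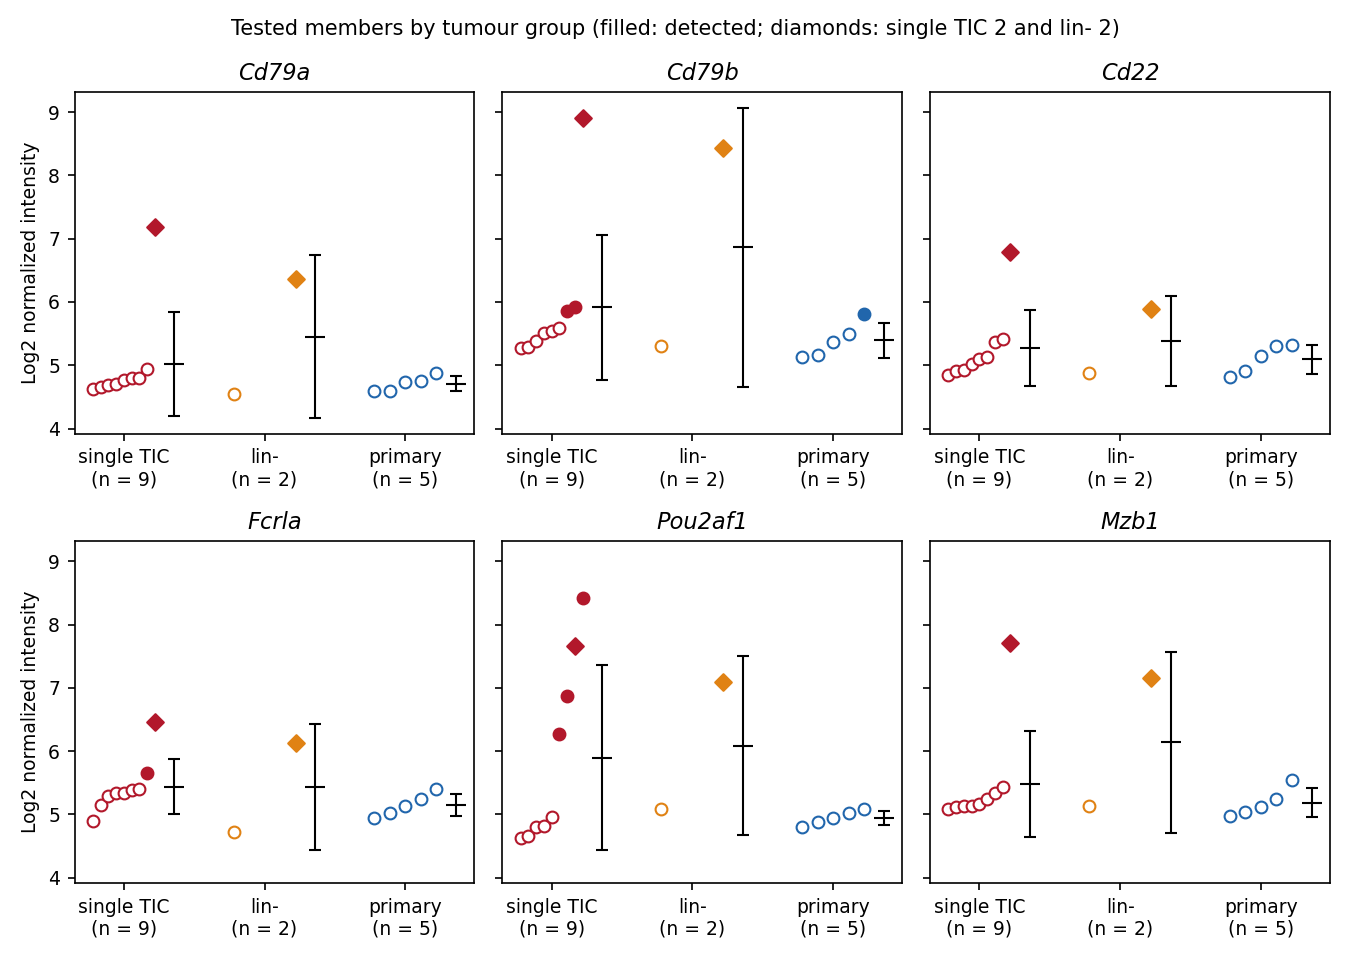
Log2 normalized intensity of the 6 members with a tested probe, 1 panel each, in the single TIC, lin- and primary tumours (n = 9, 2 and 5), with points as tumours, filled where detected, and the bar as mean ± SD. Diamonds mark single TIC 2 and lin- 2, which are the 2 highest points in every panel but that of Pou2af1, where single TIC 7 at 8.43 is highest.

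The first comparison asked whether the members differed between single TIC and primary tumours. None of the 6 members that could be tested passed, and the other 3 had too few detections. A gene was tested when a probe of it was detected on at least 2 arrays, which kept Cd79a, Cd79b, Cd22, Fcrla, Pou2af1 and Mzb1 among 9903 genes and left out Ms4a1, Blk and Pax5. By limma's moderated test with Benjamini-Hochberg adjustment over all 9903 genes, 0 of 6 members passed an adjusted p of 0.05, beside 6.26% of all genes (2.13% higher and 4.13% lower), and 0 of 6 passed at an unadjusted p of 0.05. Pou2af1 averaged 5.90 ± 1.46 in single TIC and 4.95 ± 0.11 in primary tumours (SD, n = 9 and 5), a difference of 0.95 (SE 0.61, 95% interval -0.35 to 2.25, adjusted p = 0.346 by limma). With each primary array taken at the higher of its own value and the dimmest detected probe, the mean of Pou2af1 was 1.19-fold higher. Of the primary arrays, 0 of 5 detected the gene. Undetected single TIC tumours kept their own values, which bound the level only from above, so this fold is no lower limit. The fold rested on the 4 of 9 single TIC tumours that detected the gene. It was 1.02-fold without single TIC 2, and no fold could be given without single TIC 7. Cd79b averaged 5.92 ± 1.14 in single TIC and 5.39 ± 0.28 in primary tumours, a difference of 0.53 (95% interval -0.65 to 1.70, limma adjusted p = 0.592). The remaining members were lower on average than the dimmest detected probes, so their differences carry no fold. Those differences were 0.31 for Cd79a (limma adjusted p = 0.648), 0.30 for Mzb1 (0.677), 0.29 for Fcrla (0.470) and 0.18 for Cd22 (0.726). These differences were smaller without single TIC 2, at 0.041 for Cd79a, 0.15 for Cd79b, 0.022 for Mzb1, -0.011 for Cd22 and 0.16 for Fcrla. That of Pou2af1 was 0.73 without single TIC 2 and 0.64 without single TIC 7.

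The same question was put to the lin- tumours, and here 1 of only 2 tumours carried the signal. Of the 6 members, 0 passed in lin- against primary tumours by limma, at an unadjusted p of 0.05 too, beside 0% of all genes (975 of 9903 at an unadjusted p of 0.05). Cd79b averaged 6.87 ± 2.21 in lin- and 5.39 ± 0.28 in primary tumours (SD, n = 2 and 5), a difference of 1.47 (SE 0.83, 95% interval -0.29 to 3.24, limma adjusted p = 0.585). Pou2af1 differed by 1.14 (limma adjusted p = 0.738) and was 1.36-fold higher when reckoned as above. Mzb1 differed by 0.96 (limma adjusted p = 0.625) and was 1.41-fold higher in the same way. Cd79a differed by 0.75 (limma adjusted p = 0.710), Cd22 by 0.29 (0.875) and Fcrla by 0.28 (0.854), with no fold. These folds, like the means, rest on lin- 2, and no fold could be given without it. They are no lower limits either, since lin- 1 detected neither gene and kept its own value. With lin- 1 alone the differences were -0.17 for Cd79a, -0.085 for Cd79b, -0.21 for Cd22, -0.43 for Fcrla, -0.057 for Mzb1 and 0.14 for Pou2af1, where lin- 1 was assumed to vary like the other groups. Both comparisons share the 5 primary tumours.

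**Figure D3:**
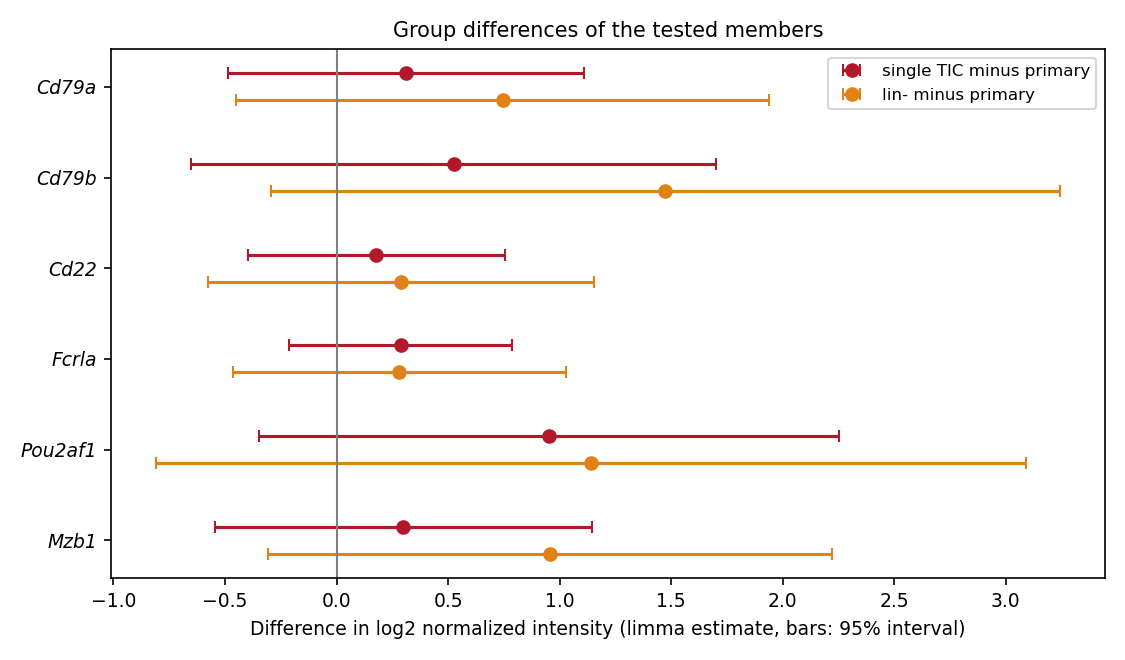
Difference in log2 normalized intensity, with its 95% interval, for the 6 tested members, down the page, in single TIC minus primary (red) and lin- minus primary tumours (orange). Every interval includes 0, and the widest are those of Cd79b and Pou2af1 in the lin- tumours.

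Between single TIC and lin- tumours 0 of 6 members passed by limma, at an unadjusted p of 0.05 too, beside 0% of all genes (167 of 9903 at an unadjusted p of 0.05). The largest estimated difference was -0.95 for Cd79b (95% interval -2.60 to 0.70). With all 11 secondary tumours against the 5 primary tumours, 0 of 6 members passed by limma, again also at an unadjusted p of 0.05, beside 7.65% of all genes (2.52% higher and 5.13% lower). The largest estimate there was 0.99 for Pou2af1 (95% interval -0.23 to 2.20, limma adjusted p = 0.288), with Cd79b at 0.70 (0.439).

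Whether B cell and plasma cell genes were high in the same tumours had a different answer for each plasma cell member. Single TIC 2 and lin- 2 were the 2 highest of 16 tumours for Cd79a, Cd79b, Cd22, Fcrla and Mzb1, that is for 5 of 6 tested members. Cd79a, Cd22, Mzb1 and Fcrla passed the detection filter only through these 2 tumours, which all but fixes that count. For Fcrla the only other detection was in single TIC 5. Among all 9903 tested genes the pair was highest for 61 (0.616%), and nothing is read from the members' count against that share. Pou2af1 was the exception, with single TIC 7 highest, followed by single TIC 2 and then lin- 2. Single TIC 2 exceeded lin- 2 for all 6 tested members. This pair of tumours was picked out by these members, so the counts are a description and carry no test. Because the 2 tumours lie apart from the other 14, no coefficient over all 16 is given. Of 15 pairs of tested members, 13 passed a two-sided permutation test of Pearson's r over 16 tumours (100000 permutations, Benjamini-Hochberg over the 15 pairs). For Spearman's rank correlation 0 passed (smallest permutation adjusted p = 0.0630). The 13 passes carry no support, since single TIC 2 and lin- 2 set r and brought most of these members through the detection filter. Without single TIC 2 and lin- 2, chosen after the values were seen, 0 of 15 pairs passed for Pearson's r, which ran from -0.33 to 0.58 with a median of 0.18. For Cd79b with Mzb1, r was then 0.51 and the rank correlation 0.51 (n = 14, permutation adjusted p = 0.301 and 0.452). The 1 pair that then passed for the rank correlation was Fcrla with Pou2af1, at -0.76 (permutation adjusted p = 0.0383, r = -0.33), and most of its values are below detection. Within the 9 single TIC tumours, 0 of 15 pairs passed for either coefficient (exact permutation, smallest adjusted p = 0.0705 for r). Mzb1 and the B cell members were thus high together in single TIC 2 and lin- 2, and no pair of them passed once those tumours were left out.

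**Figure D4:**
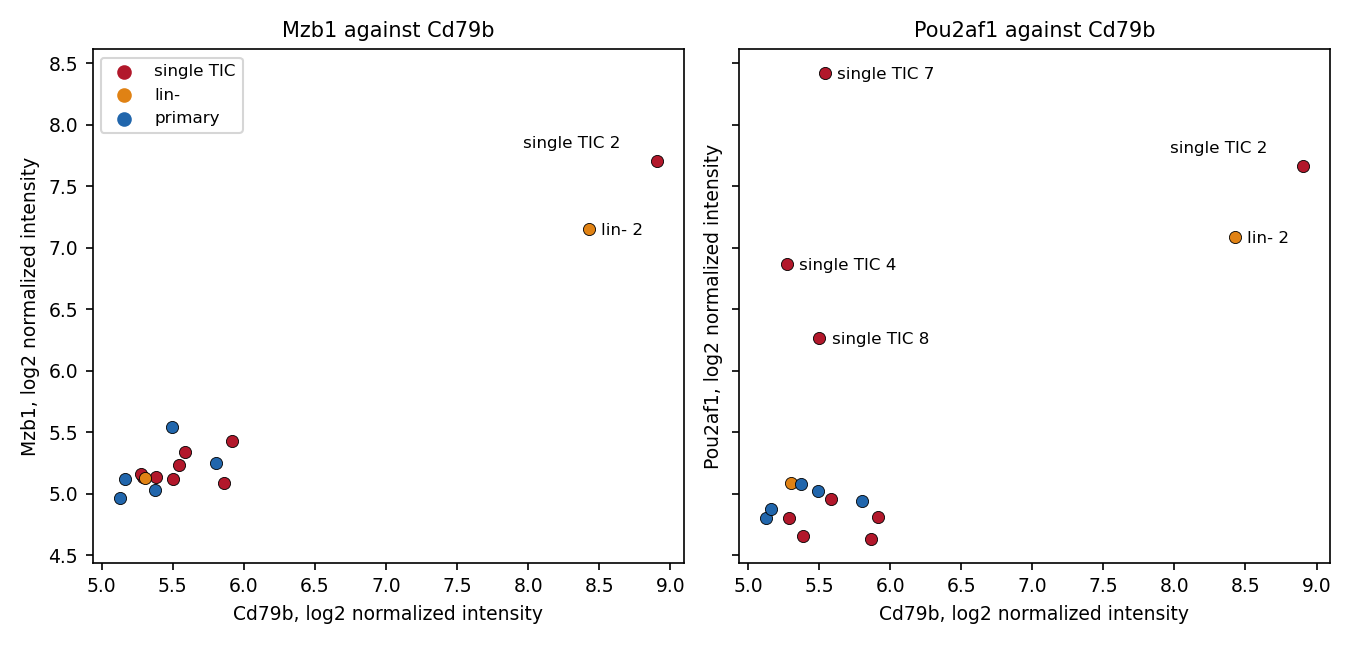
Log2 normalized intensity of Mzb1 (left) and Pou2af1 (right) against that of Cd79b, with 1 point per tumour coloured by group. Single TIC 2 and lin- 2 stand alone at the upper right for Mzb1, and for Pou2af1 single TIC 7, 4 and 8 are high at Cd79b values between 5.27 and 5.54.

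The genes whose pattern over the 16 tumours was most like that of the members included several chemokines and lymphocyte genes. Likeness was Pearson's r with the mean of the standardized values of the 6 tested members, given as a description because the same 2 tumours set it. The 10 nearest genes were Cxcl13 (r = 0.98), Fcmr, Ccl19, Ccl21b, Ccl21c, Ccl21a, Glycam1, Cxcr5, Chst3 and Cldn11 (r = 0.92). Cxcl13, which draws B cells into follicles, read 9.41 in single TIC 2 and 8.72 in lin- 2 against 4.61 to 5.36 in the other 14 tumours, which did not detect it. Cxcr5, its receptor on B cells, read 7.05 and 6.21 in that pair against at most 5.24. Fcmr, the IgM Fc receptor of B cells, read 9.26 and 8.19, and was otherwise detected only in single TIC 9 (5.62). Ccl19, a ligand of Ccr7 that guides lymphocytes into lymph nodes, read 8.36 and 7.32 against at most 5.44. The Ccl21a, Ccl21b and Ccl21c probes may not separate these near-identical genes. Ccl21a read 9.59 in single TIC 2 and 7.78 in lin- 2 and was also detected in single TIC 3 (5.96). Glycam1, a mucin of lymph node venules that is also made in the lactating mammary gland, read 10.98 and 10.81. It was otherwise detected in single TIC 7 (7.26) and single TIC 8 (6.12), both of which also detected Pou2af1. Single TIC 4 detected Pou2af1 but not Glycam1. Taken alone, Cd79a and Mzb1 had nearly the same 10 nearest genes, with Il4i1 added in each case. Il4i1, an amino acid oxidase of antigen-presenting cells and B cells, read 9.31 and 8.04 against 5.59 to 7.08. The 10 genes nearest Pou2af1, looked up after its values were seen, shared none with that list. They were led by Pomt2 (r = 0.86) and Ddah1 (0.85) and included the sterol synthesis enzymes Dhcr7 and Lss, all detected in 16 of 16 tumours.

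**Figure D5:**
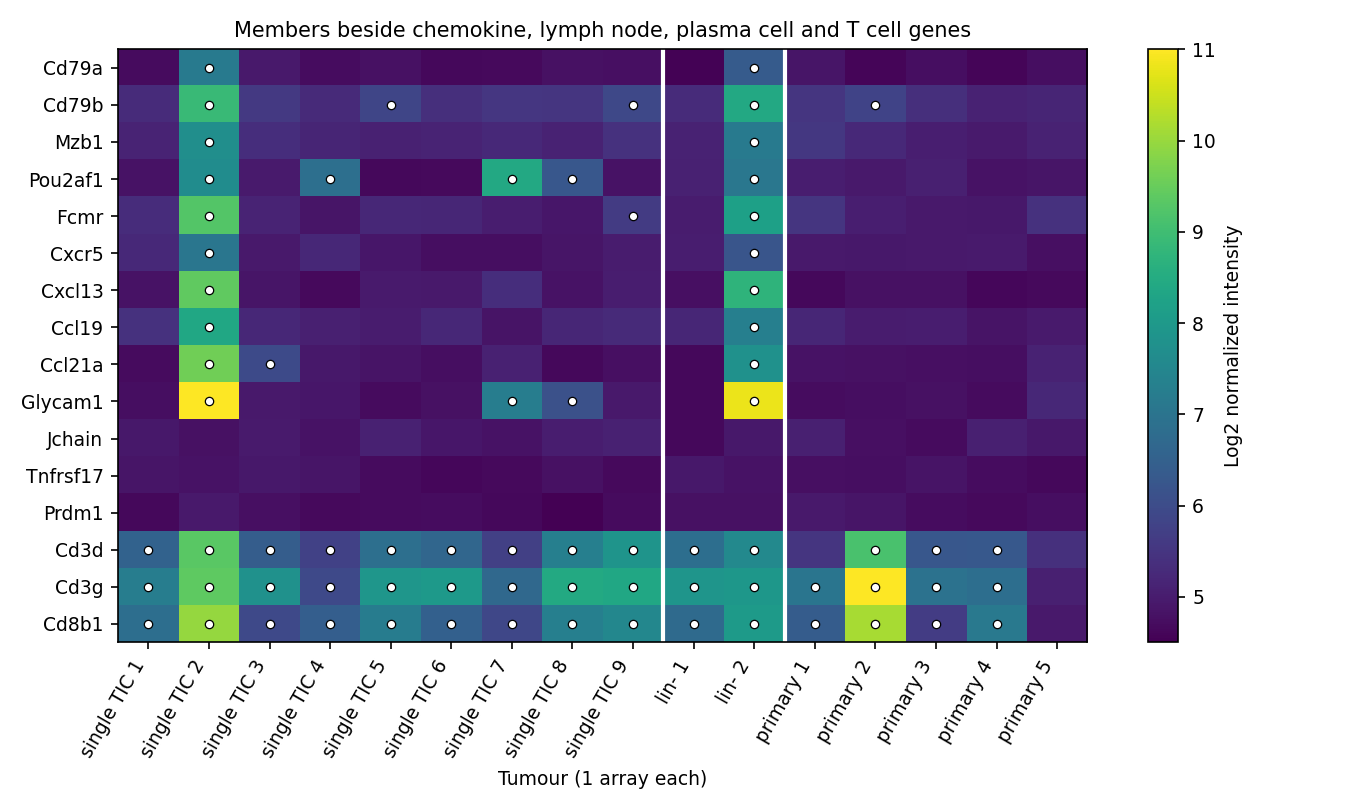
Log2 normalized intensity (colour) of 4 members and of B cell receptor, chemokine, lymph node, plasma cell and T cell genes, down the page, in each of 16 tumours, across, with a dot where detected. Cxcl13 and Cxcr5 are bright with Cd79a in single TIC 2 and lin- 2, Jchain, Tnfrsf17 and Prdm1 stay dark throughout, and the T cell genes Cd3d, Cd3g and Cd8b1 are also bright in primary 2.

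Other B cell genes were counted between single TIC and primary tumours in the same limma fit. Beside each count below stand the 2.13% of all 9903 genes that rose, the 4.13% that fell and their median difference of -0.02. With 6 to 14 genes tested in a list, each of those shares comes to less than 1 gene, and nothing about a list is read from a count of 0 or 1. Of 24 other B cell surface genes 12 were tested, of which 1 rose and 0 fell, with a median difference of 0.28. The one that rose was Cd180, a Toll-like receptor relative of B cells and macrophages (0.96, SE 0.21, limma adjusted p = 0.0176). Cd180 averaged 6.02 in single TIC tumours, 6 of which detected it, and 5.06 in primary tumours, which did not. Its adjusted p was 0.0531 without primary 5 and 0.149 with mean raw intensity as a covariate. Cd40, the costimulatory receptor of B cells and other antigen-presenting cells, did not pass at 1.06 (limma adjusted p = 0.0724). Of these 12 genes, 3 had single TIC 2 and lin- 2 as their highest tumours, namely Fcmr, Cxcr5 and Ccr6, beside 0.616% of all tested genes. Cxcr5 and Fcmr passed the detection filter only through this pair, Fcmr being otherwise detected only in single TIC 9. Nothing is therefore read from this count. Of 14 tested genes of B cell receptor signalling 1 rose and 0 fell, with a median of 0.15. This was Btk, the Tec family kinase below the receptor that myeloid cells also use (0.75, SE 0.20, limma adjusted p = 0.0368), a call lost without any of 8 single tumours (adjusted p 0.0502 to 0.0943), without both single TIC 2 and lin- 2 (0.0767), in the authors' processed values (0.0518) and with the intensity covariate (0.138). Dapp1, an adaptor of the same pathway, differed by 0.55 (limma adjusted p = 0.0891, and 0.0231 without single TIC 7). None of the 14 had single TIC 2 and lin- 2 as its 2 highest tumours.

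Among 9 tested B lineage transcription factors and germinal centre genes 0 rose and 1 fell, with a median of -0.07. Foxo1, a forkhead factor active in early B cells and in many other tissues, fell by 0.65 (SE 0.11, limma adjusted p = 0.00754). It ranged from 9.15 to 9.54 in single TIC and from 9.62 to 10.24 in primary tumours, without overlap, and its adjusted p was 0.0552 with the intensity covariate. Bcl6, the germinal centre repressor, differed by -0.93 (limma adjusted p = 0.0953). Of 10 tested plasma cell genes besides the members 0 rose and 0 fell, with a median of 0.18. Derl3, an endoplasmic reticulum degradation protein, had the largest difference (1.25, limma adjusted p = 0.0682, but 0.0477 without primary 4 and 0.0333 without single TIC 9), and was detected in 16 of 16 tumours with its highest value, 10.20, in single TIC 4. In all secondary against primary tumours Derl3 passed narrowly (1.24, limma adjusted p = 0.0493). It missed the threshold without each of 13 single tumours taken in turn, at adjusted p values up to 0.133, and in 6 further settings. Edem1, of the same pathway, differed by 0.46 (limma adjusted p = 0.187, and 0.0479 without primary 2). Jchain, the joining chain of secreted IgA and IgM, was detected in 0 of 16 tumours, as were Tnfrsf17, the BCMA receptor of plasma cells, and Prdm1, the plasma cell master regulator. Each of these 3 was at most 5.11 in every tumour. Of 32 immunoglobulin gene symbols looked up, 0 had a named probe, so antibody transcripts were not analysed here.

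Genes that attract B cells or keep them alive did not pass as single genes. Of 8 tested 0 rose and 0 fell, with a median of 0.43, and Cxcl13 differed by 0.73 (limma adjusted p = 0.557) and Cxcl12 by -0.62 (0.224). In 3 of these 8, Cxcl13, Ccl19 and Ccl21a, single TIC 2 and lin- 2 were the 2 highest tumours, beside 0.616% of all tested genes. These 3 passed the detection filter only through that pair, Ccl21a being otherwise detected only in single TIC 3. Nothing is therefore read from this count. The lymph node list, which shares those 3 genes and Il7, likewise had 0 rises and 0 falls of 8 tested and a median of 0.56. Pdpn, of lymph node stroma and other tissues, differed by 1.72 (limma adjusted p = 0.143) and Glycam1 by 1.10 (0.537). Of these 8 genes 8 were detected in single TIC 2 and 7 in lin- 2, against 2 to 4 in each of the other tumours. The 3 shared chemokines were tested only because single TIC 2 and lin- 2 detected them. Il7 was detected only in single TIC 2 and single TIC 9. The filter thus partly fixes these detection counts, and nothing is read from their contrast. The summed linear intensity of the 8 genes was mostly that of Clu. It ran from 2397 to 27648 in single TIC, was 11546 and 23105 in lin-, and ran from 7843 to 31528 in primary tumours. The lymph node genes Madcam1 and Chst4 were detected in 0 of 16 tumours. The part of lymph node tissue in the values of single TIC 2 and lin- 2 was not tested.

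T cell genes were followed beside the members, because T cells gather where B cells do. Of 9 tested 0 rose and 0 fell between single TIC and primary tumours, with a median of 0.07. Cd3d, a chain of the T cell receptor complex, differed by 0.42 (limma adjusted p = 0.715) and Cd3g, another chain, by 0.33 (0.822). Their summed linear intensity ran from 516 to 4036 in single TIC tumours, was 863 and 1268 in lin- tumours, and ran from 587 to 5461 in primary tumours. The 2 highest sums were those of single TIC 2 (4036) and primary 2 (5461). Single TIC 2 detected 9 of these 9 genes, lin- 2, primary 2 and single TIC 9 detected 8 each, and single TIC 8 detected 7. The sum of single TIC 9 (1476.5) was above that of lin- 2. Primary 2 thus had the highest summed T cell signal with only Cd79b detected among the members, which read 8.90 in single TIC 2 and 5.80 in primary 2. Cd8b1 was detected in 15 of 16 tumours, whereas the single probes of Cd4 and Cd8a were detected in none.

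Among markers of other cells, 8 macrophage and dendritic cell genes had 0 rises and 0 falls with a median of 0.57, and were detected in every tumour. Their summed intensity ran from 7202 to 22563 in single TIC, was 7717 and 13977 in lin-, and ran from 5272 to 12461 in primary tumours. Lyz2, the macrophage lysozyme, differed by 1.03 (limma adjusted p = 0.0774, but 0.0339 without primary 4 and 0.0373 without single TIC 4) and Aif1 by 0.66 (0.130). The 8 genes of all leukocytes had 1 rise, that of Arhgdib (0.95, SE 0.26, limma adjusted p = 0.0406), whose adjusted p lay between 0.0511 and 0.111 without any of 11 single tumours and was 0.0585 with no detection filter, 0.0521 with only the groups compared and 0.188 with the intensity covariate. The median of these 8 genes was 0.49, and Cd52 differed by 0.85 (limma adjusted p = 0.236, and by 1.30 with 0.0440 without primary 2). Their sum was highest in single TIC 2 (18074), primary 2 (14832) and single TIC 9 (14760), with 8420 in lin- 2 against 9656 in lin- 1. Of 6 plasmacytoid dendritic cell genes none passed, Ly6d differing by -2.07 (limma adjusted p = 0.160, and 0.0499 without primary 1) and Irf7 by 0.92 (0.138). Of 7 epithelial genes Cldn7, a tight junction protein, rose by 0.54 (SE 0.12, limma adjusted p = 0.0179, 0.0511 without primary 1 and 0.104 with the intensity covariate) and none fell, with Elf3 at -0.47 (0.212). The part of any of these cells in the members' values was not tested.

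The arrays were alike in the share of probes detected, 48.7% to 51.2%, but less so in intensity. Mean raw intensity ran from 804.9 to 1031.2 and was 908.7 in single TIC 2 and 1021.4 in lin- 2. Primary 5 (804.9) and primary 1 (840.4) lay below every single TIC array, the lowest of which read 866.4. With mean raw intensity as a covariate, 18 genes in place of 620 were called between single TIC and primary tumours. The cause was not tested. Over the 9903 tested genes, Pearson's r between arrays ran from 0.935 to 0.987 over 120 pairs, with a median of 0.972, and that of single TIC 2 with lin- 2 was 0.977, which ranked 40th.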

How the data were processed

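RNA of 16 tumours was measured on 1-colour Illumina bead arrays labelled with biotin. The deposited non-normalized table holds, per the file headers, a linear intensity and a detection p-value for each of 25697 probes and tumour. The authors' processed table holds quantile-normalized linear intensities, as judged from its values. Per the submitters' processing notes the tool was BeadStudio; its version and settings are not given in the sources available. Probe symbols came from the supplied array annotation (23978 probes with 1 symbol, 0 with several, 1719 with none). Of these, 23962 matched RefSeq of GRCm38.p6 by Entrez identifier and 0 changed.

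From the deposited intensities, log2 values were computed in R 4.3.3 (limma 3.58.1) by normexp background correction and quantile normalization. Negative controls were inferred from the detection p. An offset of 16 was added before the logarithm, which understates differences of dim genes. Probes detected on at least 2 arrays were kept (13681 named), and the brightest kept probe stood for its gene. The groups came from the sample labels. They were compared with lmFit and eBayes on 3 group means, or 2 means for all secondary tumours, two-sided, with Benjamini-Hochberg adjustment over 9903 genes. Correlations used permutations, exact below 10 tumours, and the scripts were tested on simulated data. The members and the gene lists were chosen with earlier results of these data known. The text names every member, the genes called in each list (at most 4), the 2 largest differences in each list between single TIC and primary tumours, and the 10 genes most like the members together and like Cd79a and Mzb1 alone. Named outside that rule, after their values were seen, were Pou2af1's nearest genes, the undetected plasma cell, lymph node and T cell genes, and Ccr6, Cd37, Tnfrsf13c, Ebf1, Cd8b1, Clu and Il7. Depth in counts does not apply to arrays, and the number of tumours limits the precision.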

Additional observations from a re-analysis of the deposited data

Results flagged for a closer look

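In the 9 single TIC tumours, 1 tumour lay far from the other 8 for 5 of the 6 tested members, and in each case it was single TIC 2. Its value was 7.18 for Cd79a, 8.90 for Cd79b, 6.79 for Cd22, 6.47 for Fcrla and 7.71 for Mzb1. The gap to the next tumour, divided by the range of the group, was 0.878 for Cd79a, 0.868 for Mzb1, 0.823 for Cd79b, 0.714 for Cd22 and 0.515 for Fcrla, each above Dixon's 95% critical value of 0.493. For Pou2af1 no tumour stood apart in this way. Of 12 sets of values examined, 6 members in the single TIC and in the primary tumours, 5 were marked, and the 5 share 1 array. Chance marks about 1 in 20 sets of values, but the 5 are no test against it, because Cd79a, Cd22 and Mzb1 were examined only since single TIC 2 and lin- 2 detected them, which leaves single TIC 2 as the 1 detected tumour of its group. Fcrla also passed the filter only through single TIC 2 and lin- 2, with single TIC 5 as its only other detection. The lin- group, with 2 tumours, could not be examined in this way. Why single TIC 2 stood apart was not tested.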

How the results depend on the processing

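The count of members called was 0 in all 4 comparisons under every alternative run. The members tested were 6, except 9 with no detection filter and 2 with detection required on at least 5 arrays. Over 152 alternative values in each comparison the members' smallest adjusted p by limma was 0.277 for single TIC against primary, 0.392 for lin- against primary, 0.999 for single TIC against lin- and 0.233 for all secondary against primary tumours. The sign differed from that reported in 2, 10, 16 and 1 of the 152 values. Leaving out both lin- 2 and single TIC 2, an alternative chosen after seeing the data, gave -0.011 for Cd22 in single TIC against primary and -0.034 for Cd22 in all secondary against primary tumours. In lin- against primary tumours it gave -0.17 for Cd79a, -0.085 for Cd79b, -0.21 for Cd22, -0.43 for Fcrla and -0.057 for Mzb1. In single TIC against lin- tumours it gave 0.21 for Cd79a, 0.24 for Cd79b, 0.20 for Cd22, 0.08 for Mzb1 and 0.59 for Pou2af1. Fcrla in that comparison was 0.007 as estimated over all tumours, -0.024 with offset 50, -0.009 with cyclic loess and -0.15 with the mean of kept probes. With mean raw intensity as a covariate Cd3g was -0.096 in single TIC and -0.067 in all secondary against primary tumours. Leaving out 1 tumour at a time, single TIC against primary gave -0.011 to 0.23 for Cd22 and -0.26 to 1.29 for Cd3g, and all secondary against primary gave -0.23 to 1.31 for Cd3g. In lin- against primary tumours the ranges were -0.17 to 1.66 for Cd79a, -0.085 to 3.03 for Cd79b, -0.21 to 0.79 for Cd22, -0.43 to 0.99 for Fcrla and -0.057 to 1.97 for Mzb1. In single TIC against lin- tumours they were -1.35 to 0.48 for Cd79a, -2.51 to 0.61 for Cd79b, -0.61 to 0.39 for Cd22, -0.70 to 0.71 for Fcrla, -1.67 to 0.36 for Mzb1 and -1.19 to 0.81 for Pou2af1.

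Over all genes, 620 were called between single TIC and primary tumours, 18 with mean raw intensity as a covariate, 325 without both lin- 2 and single TIC 2, and 262 to 784 without 1 tumour at a time. The count fell most without primary 3 (262), primary 5 (278) and primary 1 (294). Between all secondary and primary tumours 758 were called, 32 with the covariate, 457 without both tumours and 373 to 947 without 1 tumour. Between lin- and primary tumours 0 were called, 1 in the authors' processed values, with offset 50, with no detection filter or with only the groups compared, 10 with array weights, and 0 to 7 without 1 tumour. Between single TIC and lin- tumours 0 were called, 1 with array weights and 0 to 1 without 1 tumour. The causes were not tested. The count of member pairs that passed for Pearson's r was 13, and 12 in the authors' processed values and 10 with residuals from group means. It was 0 without the 2 tumours farthest from the median, 0 without lin- 2 and single TIC 2, 0 within the single TIC tumours and 0 within those without single TIC 2. For the rank correlation the count was 0 over all tumours and 6 with residuals from group means (smallest permutation adjusted p = 0.00169). With 2 lin- tumours, the residuals of lin- 1 and lin- 2 are equal and opposite by construction. Nothing is therefore read from the 6, nor from the 10 for Pearson's r. The rank count was 1 without the 2 tumours farthest from the median and 1 without lin- 2 and single TIC 2. It was also 1 within the single TIC tumours without single TIC 2. No paired analysis was possible because the labels give no replicate numbers that groups share. A slide block was not run, since the file headers give no slide. Most member values lie below detection, which bounds them only from above, and with 2 lin- tumours a single tumour decides each lin- mean.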

Other observations

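Some further B cell genes outside the members, though not most, were brightest in single TIC 2 or in lin- 2. Cd37, a tetraspanin of B cells, was detected in single TIC 2 alone, at 6.30 against 5.56 in lin- 2. Tnfrsf13c, the BAFF receptor of B cells, was detected in 13 tumours and read 7.71 in single TIC 2, its highest value, and 7.12 in lin- 2, beside 7.13 in primary 3. Ccr6, a chemokine receptor of B cells and some T cells, read 7.94 in single TIC 2 and 7.07 in lin- 2, and was also detected in 5 other tumours, at up to 6.56. Ebf1, the B lineage factor that is also expressed in fat and stromal cells, was highest in lin- 2 (6.60) and single TIC 2 (6.44), within a narrow range that began at 5.42. These genes were picked after their values were seen, and nothing is read from them. Of 12 tested B cell surface genes 5 were highest in single TIC 2. Among 9 tested B lineage transcription factors and germinal centre genes 2 were, and among all 9903 tested genes 619 were. Cd180, for example, was highest in single TIC 9 (6.67).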
